A study of Mus musculus with 6 samples.

Results

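Transcripts of the immunoglobulin constant regions, of the joining chain and of the polymeric immunoglobulin receptor were followed in small intestinal adenomas of mice with intact and with genetically depleted Paneth cells (PCs). The members were read from the tables by gene name, were listed with earlier results of these data known, and are 10 of the 48440 genes in the tables: the heavy chains *Igha*, *Ighm*, *Ighg1*, *Ighg2b*, *Ighg2c* and *Ighg3*, the light chains *Igkc* and *Iglc2*, *Jchain* and *Pigr*. RNA-seq was performed on adenoma polyps of ApcMin mice (libraries QC4, QC5 and QC6) and ApcMin.PCdel mice (QC3, QC8 and QC10), 3 libraries each. The sample titles give no mouse identifier, and each library is taken here as 1 mouse. All 6 mice carried the Min allele of *Apc*, on a C57BL/6 background, and were older than 42 days. In ApcMin.PCdel mice, a Cre cassette knocked into *Defa4*, a PC defensin gene, removes the stop in front of diphtheria toxin A at *Rosa26* (*Rosa26* iDTA/WT), which kills cells of the PC lineage. By the study's methods, control littermates carried *Rosa26* iDTA/WT without Cre. Mice of both sexes were used, and the Cre line was made in 129/svJ embryonic stem cells and then backcrossed. The libraries are of whole polyps, so fewer cells of a type and less RNA per cell cannot be told apart.

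Immunoglobulin A (IgA) is the main antibody of the gut. Plasma cells of the lamina propria make it as a dimer of heavy and light chains held together by the J chain, which also binds pentameric IgM. The polymeric Ig receptor (pIgR, encoded by *Pigr*) sits on the basal side of epithelial cells, takes up J chain-containing IgA and IgM, and carries them into the lumen, where the cleaved receptor stays attached as secretory component. The constant region of the heavy chain sets the isotype, and class switching joins one constant region gene to the rearranged variable region in place of *Ighm*. IgG holds no J chain and is not carried by pIgR.

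The heavy chain members lie in 1 cluster on the minus strand of chromosome 12 (GRCm38), in the order in which they are transcribed: *Ighm* at chr12:113418558-113422730, *Ighg3* at chr12:113359575-113361232, *Ighg1* at chr12:113325240-113330523, *Ighg2b* at chr12:113302965-113307933, *Ighg2c* at chr12:113285325-113288932 and *Igha* at chr12:113254830-113260236. *Igkc* is at chr6:70726435-70726966, *Iglc2* at chr16:19198396-19200351, *Jchain* at chr5:88519809-88527891 and *Pigr* at chr1:130826684-130852249. The entry for *Ighg3* spans the secreted form without the membrane exons. The features that separate transported from non-transported isotypes can be read in the secreted tails of *Igha* and *Ighm*, shown here without the stop codon. The tail follows the last constant domain in the same exon, and its last codon but 1, in capitals, encodes the cysteine that bonds the J chain. Both sequences are from the GENCODE M21 transcripts, on the minus strand, and each is 59 bases long.
Igha secreted tail, chr12:113258771-113258829: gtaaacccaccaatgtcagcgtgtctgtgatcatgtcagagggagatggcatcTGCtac
Ighm secreted tail, chr12:113420870-113420928: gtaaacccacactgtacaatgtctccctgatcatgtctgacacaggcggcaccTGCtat

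The gamma chains have no such tail and are told apart by their hinge exons, which link the first and second constant domains. Cysteine codons in the reading frame of the hinge, which form disulfide bonds between the chains, are in capitals. There are 4 in *Ighg1* and *Ighg2b*, 3 in *Ighg2c* and 1 in *Ighg3*, and the exons are 39, 66, 63 and 48 bases long, again on the minus strand.
Ighg1 hinge, chr12:113329844-113329882: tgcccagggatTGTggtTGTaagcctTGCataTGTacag
Ighg2b hinge, chr12:113307261-113307326: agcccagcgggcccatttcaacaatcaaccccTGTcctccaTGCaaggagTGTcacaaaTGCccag
Ighg2c hinge, chr12:113288263-113288325: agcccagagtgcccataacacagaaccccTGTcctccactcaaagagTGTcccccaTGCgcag
Ighg3 hinge, chr12:113360529-113360576: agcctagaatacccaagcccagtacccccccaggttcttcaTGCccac

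Outside such stretches the chains overlap in sequence, which limits how reads can be assigned. Of the distinct 31-base words of a gene's transcripts, the share also found in transcripts of another gene was 0% for *Igha*, *Ighm* and *Igkc*, 0.288% for *Jchain* and 1.02% for *Pigr*. It was 1.72% for *Ighg1*, 3.63% for *Ighg3*, 9.29% for *Ighg2b* and 15.0% for *Ighg2c*, with 14.4% of the words of *Ighg2c* also in *Ighg2b*. It was 19.6% for *Iglc2*, most of it (18.2%) shared with *Iglc3*. How these shared reads were divided is not stated, so the split between *Ighg2b* and *Ighg2c* and between *Iglc2* and *Iglc3* is less certain than the values for IgA, IgM and kappa.

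The libraries were close in depth, between 5.41 and 5.88 gigabases of aligned sequence as estimated from the coverage. Read counts are not used here, so counting error is unknown and the errors given are between mice. Values are FPKM, fragments per kilobase of transcript, scaled for the size of the library, and so allow levels of different genes to be compared. Genes were compared with limma on log2(FPKM + 1), in the 14240 genes whose FPKM averaged 1 or more. At an adjusted p-value threshold of 0.05, 2 genes passed (0.0140%), *Hist2h2aa1* and *Rab43*, neither of which is a member. *Lyz1*, a PC gene, was at 1672, 2229 and 2281 FPKM in QC4, QC5 and QC6. In QC3, QC8 and QC10 it was at 950.3, 1148 and 1082 FPKM. The study reported low *Lyz1* in ApcMin.PCdel adenomas from these same data, so it is not an independent check of the genotype labels. Library QC6 stood apart, with the lowest array quality weight (0.237, against 0.634 to 3.09), the lowest *Krt19* (733 FPKM, against 996 to 1375), an epithelial keratin, and the highest *Apoa4* (7440 FPKM, against 1403 to 2436), an apolipoprotein of enterocytes.

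IgA and kappa light chain were among the most abundant transcripts of these polyps in every library. *Igha*, the heavy chain of IgA, was at 8499, 7791 and 11650 FPKM in the ApcMin libraries QC4, QC5 and QC6 and at 10157, 9089 and 8894 FPKM in the ApcMin.PCdel libraries QC3, QC8 and QC10. *Igkc*, the kappa constant region, was at 11191, 9930 and 14967 FPKM and at 13013, 11381 and 12126 FPKM in the same order. *Igkc* was at rank 1 or 2 of all genes in a library and *Igha* at rank 2 or 3. In both genes the highest and the lowest library were ApcMin, with the 3 ApcMin.PCdel libraries in between. Genes of the immunoglobulin loci together with *Jchain* made up between 4.74% and 7.18% of all FPKM.

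The means of *Igha* were 9313 ± 2054 FPKM in ApcMin and 9380 ± 680 FPKM in ApcMin.PCdel (SD, n = 3 each). The log2 difference in limma was 0.030 (SE 0.22, 95% interval -0.49 to 0.55, adjusted p = 1.0), which is a fold of 1.02 with an interval of 0.713 to 1.46. For *Igkc* the means were 12030 ± 2621 and 12174 ± 817 FPKM and the log2 difference was 0.037 (SE 0.22, 95% interval -0.49 to 0.56, adjusted p = 1.0, limma). Neither difference was larger than the spread between mice. For *Igkc* the fold was 1.03, with an interval of 0.711 to 1.48.

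**Figure D1:**
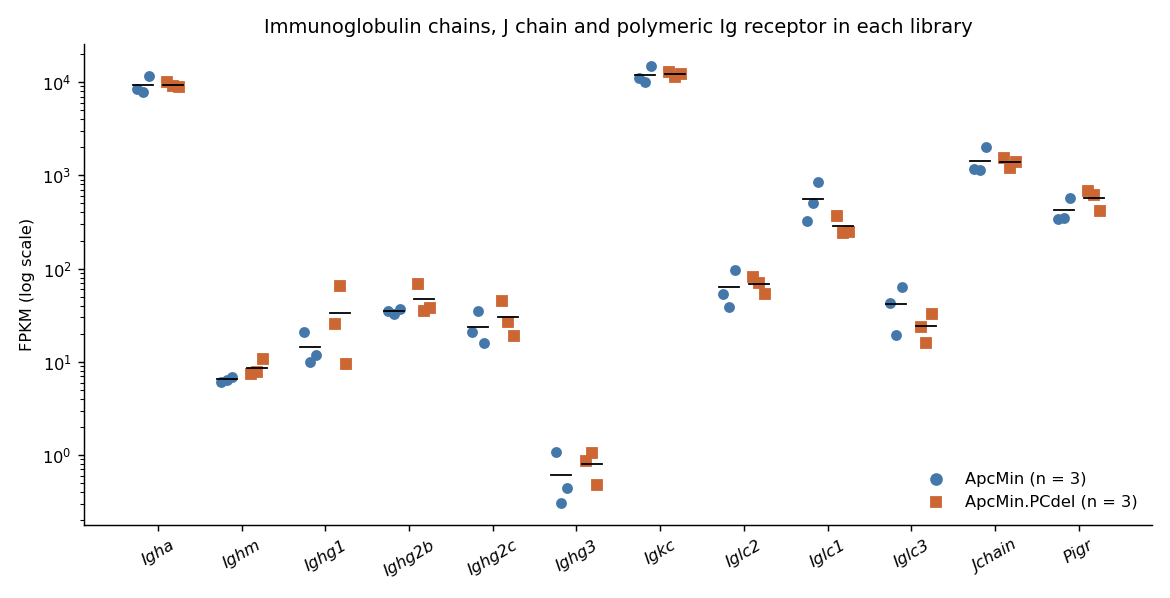
FPKM (log scale) of the 10 members and of the lambda chains *Iglc1* and *Iglc3* in each of the 6 libraries. Circles are ApcMin, squares ApcMin.PCdel, and bars the mean of 3 libraries; *Igha* and *Igkc* lie between 7791 and 14967 FPKM, and the libraries of the 2 genotypes overlap in every gene but *Ighm*.

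The order of the members by median FPKM over the 6 libraries was *Igkc* (11754), *Igha* (8991), *Jchain* (1292), *Pigr* (495), *Iglc2* (61.9), *Ighg2b* (36.1), *Ighg2c* (23.8), *Ighg1* (16.4), *Ighm* (7.15) and *Ighg3* (0.675). *Igkc* was above *Igha* in 6 of 6 libraries, though their ranges overlapped. The ranges of *Igha* and *Jchain*, of *Jchain* and *Pigr*, and of *Ighm* and *Ighg3* did not overlap. *Ighg3* was the lowest member in 6 of 6 libraries, while the ranges of *Ighg2b*, *Ighg2c* and *Ighg1* overlapped and their order differed between libraries.

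The isotype mix was almost all IgA. Of the FPKM of the 6 heavy chain members, *Igha* took 99.0%, 98.9% and 99.4% in QC4, QC5 and QC6 and 98.6%, 98.5% and 99.1% in QC3, QC8 and QC10. The means were 99.1% ± 0.241 and 98.7% ± 0.345 (SD, n = 3 each), a difference of -0.36 percentage points (exact two-sided permutation p = 0.3), which was -0.23 without QC6 and -0.56 without QC10. The smallest p that 3 libraries against 3 can give in this test is 0.1. *Igha* stood at between 838 and 1699 times *Ighm*, and at between 71.1 and 178 times the sum of the 4 gamma chains. *Ighd*, the heavy chain of IgD on naive B cells, was at 0 to 1.19 FPKM, and *Ighe*, that of IgE, at 0.0614 to 0.205 FPKM.

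Almost all *Igha* transcript was of the secreted form. The tables give a gene's coverage over all its exons beside an FPKM that counts each transcript by its own length, and their ratio shows how a gene's reads were shared between a shorter secreted and a longer membrane transcript. The ratio lay between the values set by the lengths of both transcripts in 405 of 427 genes with 2 transcripts (94.8%, tolerance 0.005). Only genes above 10 FPKM in every library were checked. The estimate was chosen after the values had been seen and is given with no test. For *Igha* (1100 bases secreted, 2540 membrane) the membrane form came to 0.0594% to 0.0755% of molecules. This is within the scatter of the ratio among genes with 1 transcript (a coefficient of variation of 0.34% to 0.402% per library), so a membrane form of *Igha* could not be told from 0. For *Ighg1* it came to at most 2.31%.

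*Ighm*, the heavy chain of IgM, was at 6.15, 6.44 and 6.86 FPKM in QC4, QC5 and QC6 and at 7.44, 7.85 and 10.6 FPKM in QC3, QC8 and QC10. All 3 ApcMin.PCdel libraries were above all 3 ApcMin libraries, and QC10 was the highest. The means were 6.48 ± 0.357 and 8.64 ± 1.73 FPKM (SD, n = 3 each). The log2 difference was 0.35 (SE 0.14, 95% interval 0.011 to 0.69), with an unadjusted p = 0.0450 and an adjusted p = 1.0 in limma, so it did not pass. *Ighm* was the only member of the 10 whose groups did not overlap, and over all 14240 genes 6.00% did so with ApcMin.PCdel higher and 1.54% with it lower. It was also the only member of the 9 tested with an unadjusted p under 0.05, as in 3.38% of all genes tested. Without QC10 the log2 difference was 0.21.

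The membrane form of *Ighm*, which is the B cell receptor chain and not a secreted product, was estimated in the same way from 1493 and 1698 bases of transcript. Of *Ighm* molecules, it made up 20.2% in QC4, 20.9% in QC5 and 34.2% in QC6, and 27.3% in QC3, 20.3% in QC8 and 16.8% in QC10. In FPKM, the membrane form was at 1.24 to 2.34 in ApcMin and 1.60 to 2.03 in ApcMin.PCdel, with overlapping groups. The secreted form was at 4.91, 5.09 and 4.51 FPKM in QC4, QC5 and QC6 and at 5.41, 6.25 and 8.83 FPKM in QC3, QC8 and QC10. The groups did not overlap in the secreted form, as in *Ighm* as a whole, and no share over other genes was computed for it. The scatter of the ratio given above for genes with 1 transcript (0.34% to 0.402%) was not carried into these splits. The lengths of the 2 *Ighm* transcripts are close, so a small shift in the ratio moves the split. Whether the gap between QC5 (5.09) and QC3 (5.41) exceeds that scatter was not tested. These splits rest on the reads' assignment by the program behind the tables, and were not tested. The check of the ratio covered only genes above 10 FPKM in every library, and *Ighm* was not among them. *Ighm* took 0.0706% ± 0.0117 of heavy chain FPKM in ApcMin and 0.0919% ± 0.0238 in ApcMin.PCdel (SD, n = 3 each, exact two-sided permutation p = 0.2). The difference of 0.0213 percentage points was 0.00805 without QC10.

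The highest library was not the same for each gamma chain. The highest library stood above the lowest by 6.96-fold for *Ighg1*, 2.82-fold for *Ighg2c* and 2.09-fold for *Ighg2b*, the last through QC3, and by 1.495-fold for *Igha*. *Ighg1*, the heavy chain of IgG1, was at 20.9, 10.1 and 11.9 FPKM in QC4, QC5 and QC6 and at 25.2, 65.3 and 9.39 FPKM in QC3, QC8 and QC10. The highest library, QC8, and the lowest, QC10, are both ApcMin.PCdel. *Ighg2b* was at 35.1, 32.9 and 37.1 FPKM and at 68.5, 34.7 and 37.4 FPKM in the same order, with QC3 alone far from the rest. *Ighg2c*, which C57BL/6 mice carry in place of *Ighg2a*, was at 20.9, 34.8 and 16.0 FPKM and at 45.3, 26.8 and 18.8 FPKM, again with QC3 highest. *Ighg3* was near the lower end of the scale, at 1.07, 0.304 and 0.441 FPKM and at 0.873, 1.06 and 0.477 FPKM, and did not pass the filter on low values.

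No gamma chain tested had a genotype difference whose 95% interval excluded 0. The log2 differences in limma were 0.84 (SE 0.65, 95% interval -0.70 to 2.39) for *Ighg1*, 0.35 (SE 0.25, -0.26 to 0.95) for *Ighg2b* and 0.31 (SE 0.38, -0.59 to 1.21) for *Ighg2c*, each with an adjusted p of 1.0. Without QC8 that of *Ighg1* was 0.17, without QC10 it was 1.51, and without QC3 that of *Ighg2b* was 0.042. The *Ighg3* means were 0.603 ± 0.406 and 0.803 ± 0.297 FPKM (SD, n = 3 each, exact two-sided permutation p = 0.6). The summed gamma chains stood at 78.0, 78.0 and 65.5 FPKM in ApcMin and at 139.9, 127.9 and 66.0 FPKM in ApcMin.PCdel, with QC10 inside the range of ApcMin. IgG took 0.819% ± 0.230 of heavy chain FPKM in ApcMin and 1.16% ± 0.367 in ApcMin.PCdel (SD, n = 3 each, exact two-sided permutation p = 0.3). The difference of 0.34 percentage points was 0.21 without QC6 and 0.55 without QC10.

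Within the gamma chains, *Ighg2b* was the largest in QC4, QC6, QC3 and QC10, *Ighg2c* in QC5 and *Ighg1* in QC8. The share of *Ighg2b* in the gamma sum ran from 27.2% in QC8 to 56.6% in QC6 and QC10, and that of *Ighg1* from 12.9% in QC5 to 51.1% in QC8. *Ighg2c* took between 20.9% and 44.6%, and *Ighg3*, with its single hinge cysteine codon, between 0.390% and 1.37%.

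**Figure D2:**
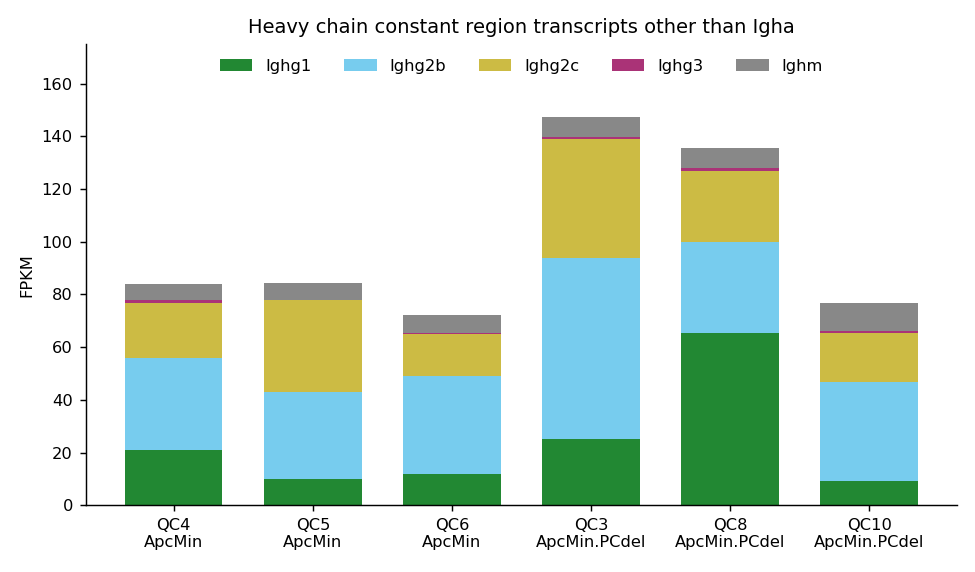
FPKM of the heavy chain constant regions other than *Igha*, stacked for each of the 6 libraries. The gamma chains sum to 65.5 to 78.0 FPKM in ApcMin and to 66.0 to 139.9 FPKM in ApcMin.PCdel, with *Ighg1* largest in QC8 and *Ighg2b* largest in QC3.

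Kappa exceeded lambda in every library, and *Iglc2* was not the main lambda chain. *Iglc2* was at 53.0, 38.7 and 97.5 FPKM in QC4, QC5 and QC6 and at 82.0, 70.6 and 53.2 FPKM in QC3, QC8 and QC10, with overlapping groups. Its log2 difference was 0.20 (SE 0.34, 95% interval -0.61 to 1.02, adjusted p = 1.0, limma). The FPKM of *Iglc2* depends on which of its transcripts the reads were given to. Scaled coverage was 0.985 to 0.987 of FPKM in QC4, QC3 and QC10 and 0.756 to 0.759 in QC5, QC6 and QC8, so that the FPKM of the latter 3 is higher at the same coverage. Coverage alone gave 52.2, 29.3 and 74.0 in ApcMin and 80.9, 53.5 and 52.5 in ApcMin.PCdel on the FPKM scale, a log2 difference of 0.33. *Iglc2* made up 0.502% ± 0.132 of the FPKM of *Igkc* and *Iglc2* in ApcMin and 0.560% ± 0.106 in ApcMin.PCdel (SD, n = 3 each, exact two-sided permutation p = 0.7).

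*Iglc1*, the constant region of the most used lambda light chain of mice, was at 323.6, 505 and 858 FPKM in QC4, QC5 and QC6 and at 366, 242 and 249 FPKM in QC3, QC8 and QC10. QC3 lay above QC4, so the groups overlapped. The log2 difference was -0.89 (SE 0.36, 95% interval -1.75 to -0.023), with an unadjusted p = 0.0456 and an adjusted p = 1.0 in limma, and -0.53 without QC6. *Iglc3* was at 43.0, 19.3 and 63.6 FPKM and at 23.8, 15.8 and 32.8 FPKM, with a log2 difference of -0.68 (SE 0.45, adjusted p = 1.0, limma), which was -0.31 without QC6, -0.42 without QC8 and -1.14 without QC5. *Iglc4* was listed at 0 in 5 libraries and at 0.0954 FPKM in QC8. These genes are not members, and they turn the light chain comparison around, as *Iglc2* held only 6.87% to 21.5% of the lambda constant region FPKM.

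With all lambda constant regions counted, lambda took 3.61%, 5.36% and 6.38% of light chain FPKM in QC4, QC5 and QC6 and 3.50%, 2.80% and 2.69% in QC3, QC8 and QC10. All 3 ApcMin.PCdel libraries were below all 3 ApcMin libraries. The means were 5.12% ± 1.40 and 2.996% ± 0.436 (SD, n = 3 each), a difference of -2.12 percentage points with an exact two-sided permutation p = 0.1, the smallest this design allows. The ratio of kappa to lambda was between 14.7 and 26.7 in ApcMin and between 27.6 and 36.2 in ApcMin.PCdel. The gap between the nearest libraries, QC4 and QC3, was small against the spread within ApcMin. Of the lambda sum, *Iglc2* took 12.6%, 6.87% and 9.56% in QC4, QC5 and QC6 and 17.4%, 21.5% and 15.9% in QC3, QC8 and QC10, also without overlap (exact two-sided permutation p = 0.1). This share carries the transcript assignment of *Iglc2* described above and the sequence it shares with *Iglc3*. Counted by variable segments, lambda relative to kappa overlapped between the genotypes, with QC3 above QC4. Lambda variable segments summed to 366 FPKM beside 6205 for kappa in QC4, and to 428 beside 7085 in QC3.

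Light and heavy chains stayed in a narrow ratio. *Igkc* plus *Iglc2* over the 6 heavy chain members was 1.31, 1.27 and 1.29 in QC4, QC5 and QC6 and 1.27, 1.24 and 1.36 in QC3, QC8 and QC10. On the log2 scale the ratio was 0.36 ± 0.025 in ApcMin and 0.37 ± 0.067 in ApcMin.PCdel (SD, n = 3 each, exact two-sided permutation p = 0.9). From coverage in place of FPKM the ratio was 2.99 to 3.28, since the *Igha* exons used only by the membrane form count in the length there. On the log2 scale its SD was then 0.027 and 0.069, so the spread between mice was small on either scale. The heavy chain constant regions stood at 2.51 to 2.77 times the summed FPKM of the heavy chain variable segments in ApcMin and at 2.20 to 2.60 times in ApcMin.PCdel (exact two-sided permutation p = 0.3).

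*Jchain*, whose product links IgA into dimers and IgM into pentamers, was at 1182, 1133 and 2012 FPKM in QC4, QC5 and QC6 and at 1547, 1201 and 1383 FPKM in QC3, QC8 and QC10. As with *Igha*, the highest and lowest libraries were ApcMin. The log2 difference was -0.023 (SE 0.25, 95% interval -0.63 to 0.58, adjusted p = 1.0, limma). Set against the chains it binds, *Jchain* stood at 13.9%, 14.5% and 17.3% of *Igha* plus *Ighm* in ApcMin and at 15.2%, 13.2% and 15.5% in ApcMin.PCdel. The log2 ratio differed by -0.053 between genotypes (exact two-sided permutation p = 0.7), less than its SD of 0.16 and 0.13.

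*Pigr*, the only member expressed by epithelial cells and not by the B lineage, was at 344, 348 and 577 FPKM in QC4, QC5 and QC6 and at 683, 618 and 414 FPKM in QC3, QC8 and QC10. QC3 and QC8 were above all ApcMin libraries, while QC10 lay between QC5 and QC6. The means were 423 ± 134 and 571 ± 140 FPKM (SD, n = 3 each). The log2 difference was 0.45 (SE 0.28, 95% interval -0.21 to 1.10), with an unadjusted p = 0.153 and an adjusted p = 1.0 in limma, and 0.69 without QC6. Per *Epcam*, an adhesion molecule of all intestinal epithelial cells, *Pigr* stood at 0.363, 0.362 and 0.785 in ApcMin and at 0.854, 0.739 and 0.413 in ApcMin.PCdel. *Epcam* itself was at 735 FPKM in QC6, its lowest library, and at 799 to 1001 FPKM elsewhere.

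The amount of receptor transcript per ligand transcript was 4.04%, 4.46% and 4.95% (*Pigr* over *Igha* plus *Ighm*) in QC4, QC5 and QC6 and 6.72%, 6.79% and 4.65% in QC3, QC8 and QC10. QC10 lay below QC6, so the groups overlapped. On the log2 scale the ratio was 0.42 higher in ApcMin.PCdel (exact two-sided permutation p = 0.2), against SDs of 0.15 and 0.31.

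**Figure D3:**
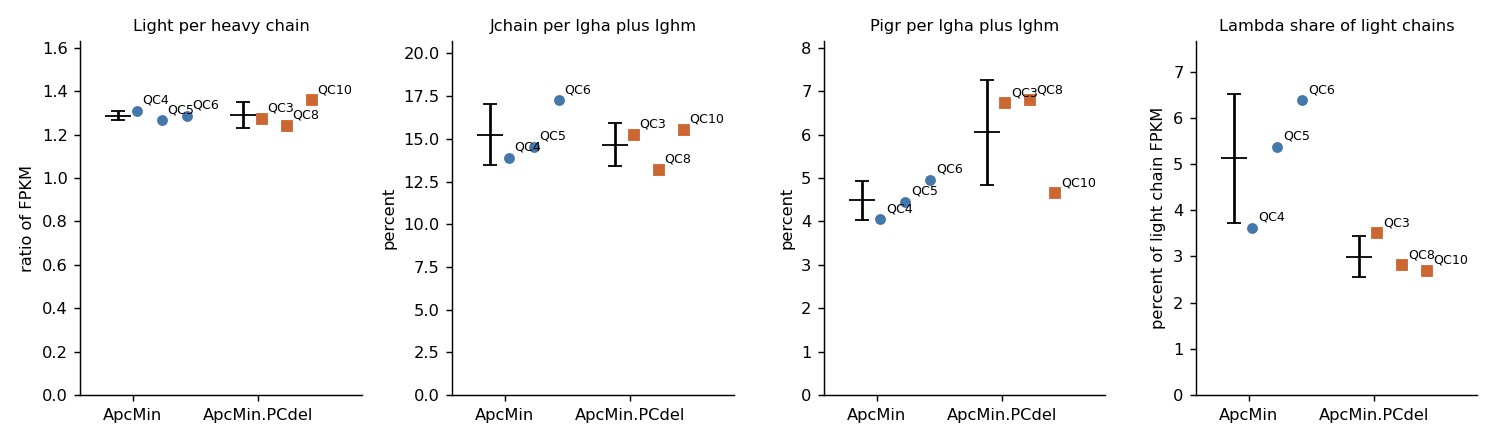
The ratio of light to heavy chain FPKM, *Jchain* and *Pigr* as percent of *Igha* plus *Ighm*, and the percent of light chain FPKM that is lambda (all lambda constant regions) in each library, with the mean and SD of 3 libraries. Light per heavy chain keeps to 1.24 to 1.36, and only in the last panel do the genotypes not overlap.

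Of the 9 members tested, 0 passed the adjusted threshold of 0.05 in limma, in the main comparison and in each of the 18 alternatives. Their adjusted p-values ran from 0.391, for *Pigr* with array quality weights, to 1.0. Of these 9, 8 had a log2 difference above 0, with a median of 0.31, beside a median of 0.042 over all genes tested, of which 63.1% were above 0. *Ighm*, *Ighg1*, *Ighg2b* and *Pigr* kept a positive difference in all 18 alternatives, and *Igha*, *Igkc*, *Jchain*, *Ighg2c* and *Iglc2* did not. Some alternatives could not move a member's log2 difference and add nothing here. These changed only the low-value filter, dropped the trend of limma or kept the largest entry of a gene, as no member had several entries.

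**Figure D4:**
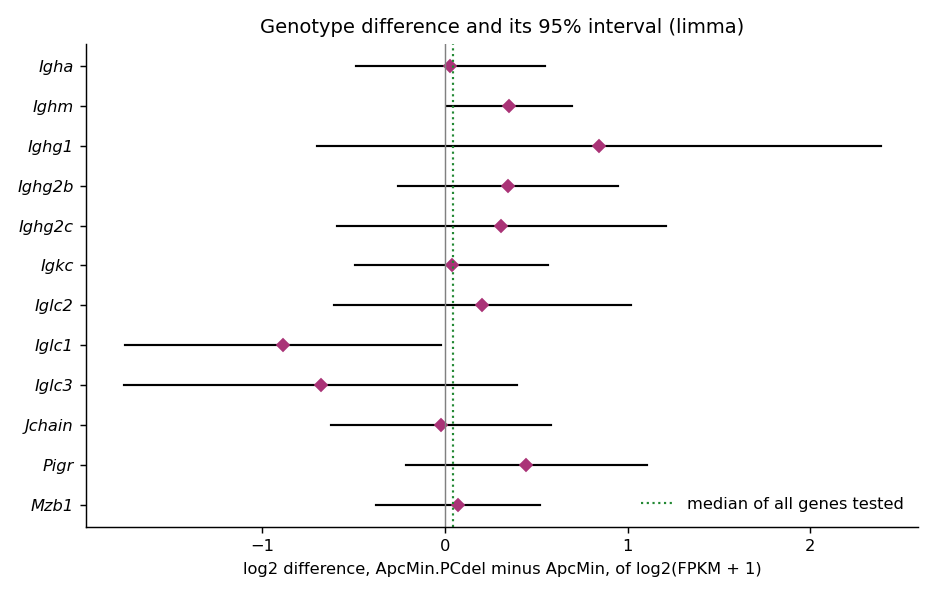
Genotype difference (ApcMin.PCdel minus ApcMin, on the log2(FPKM + 1) scale) with its 95% interval in limma, for the 9 members tested, *Iglc1*, *Iglc3* and the plasma cell gene *Mzb1*. The dotted line is the median of all 14240 genes, 0.042; the intervals of *Ighm* and *Iglc1* exclude 0 before adjustment and the others include it.

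*Igha*, the kappa chain and the J chain varied together from mouse to mouse. Over the 6 libraries, on log2(FPKM + 1), *Igha* correlated with *Igkc* (r = 0.978, exact permutation p = 0.00417, rho = 0.943, p = 0.0167) and with *Jchain* (r = 0.952, exact permutation p = 0.00417, rho = 0.943, p = 0.0167). Adjusted over the 6 relations tested, the p-values of r were 0.0125 for both, and those of rho 0.05. Without QC6 and QC5, the libraries farthest from the median of *Igha*, r was 0.876 and 0.832. *Mzb1*, a chaperone of antibody-secreting cells, had r = 0.860 (exact permutation p = 0.0153, adjusted 0.0306) and rho = 0.886 (p = 0.0333, adjusted 0.0667), and r = 0.714 without QC6 and QC5. The points of each relation share a library's scaling.

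For *Ighm* and the summed gamma chains no relation with *Igha* was detected, with r = 0.047 and 0.046 (rho = 0.371 and -0.0857; exact permutation p = 0.919 and 0.939, adjusted 0.939 for both). Without QC6 and QC5, r was 0.068 for *Ighm* and 0.760 for the gamma chains, so the latter value rests on those libraries. *Pigr* had r = 0.747 and rho = 0.771 with *Igha* (exact permutation p = 0.0847 and 0.103, adjusted 0.127 and 0.154), and r = 0.867 without QC6 and QC5. After the genotype means were subtracted, r of *Pigr* was 0.850. Its p is left out, because the permutation crossed genotypes and centred values cannot be exchanged between them. The smallest p that 6 libraries allow is 0.00139. With 3 libraries a genotype, no correlation within a genotype was tested.

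**Figure D5:**
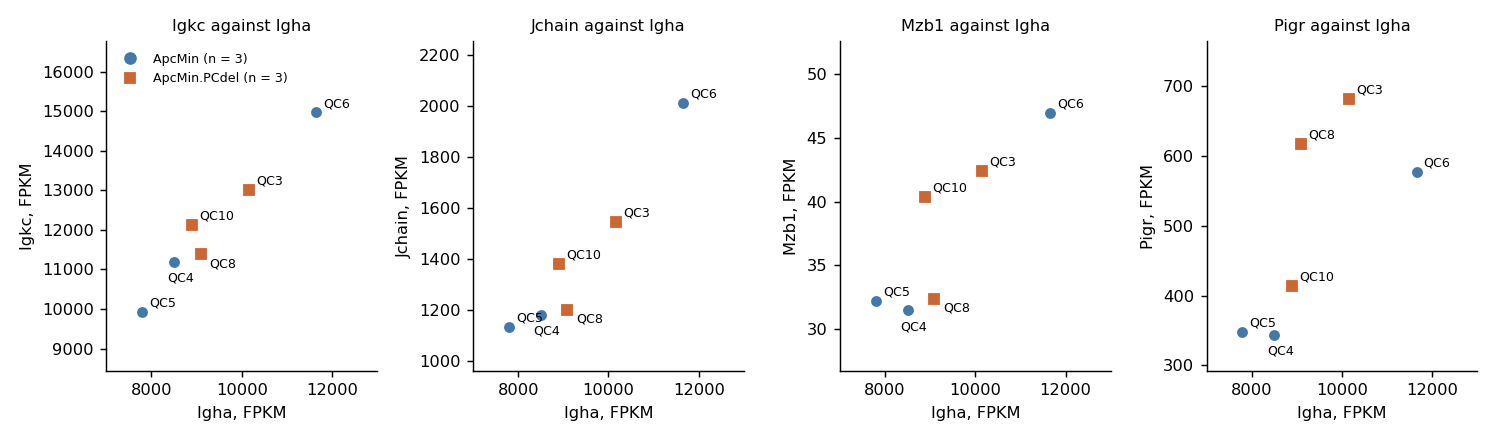
FPKM of *Igkc*, *Jchain*, *Mzb1* and *Pigr* against *Igha* in the 6 libraries (circles ApcMin, squares ApcMin.PCdel). *Igkc* and *Jchain* follow *Igha* closely, with r = 0.978 and 0.952 on the log2 scale, and *Pigr* less so, with r = 0.747.

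The highest library of each genotype was the same for most of these genes. QC6 was the highest of ApcMin and QC3 the highest of ApcMin.PCdel for *Igha*, *Igkc*, *Iglc2*, *Ighg2b*, *Jchain* and *Pigr*, which are 6 of the 10 members, and for 7.14% of all genes tested. QC6 and QC3 were also the libraries high in transcripts of the Y chromosome. *Ddx3y*, a Y-linked helicase, was at 7.43 and 8.22 FPKM in QC6 and QC3 and at 0 to 0.195 FPKM in the other 4. In those 4, *Xist*, the RNA of the inactive X chromosome, was at 16.7 to 37.4 FPKM. QC5 held a trace of Y-linked *Eif2s3y*, at 1.139 FPKM beside 21.15 and 24.33 FPKM in QC6 and QC3. This gene is part of the Y-linked term used below. With the mean level of 4 Y-linked genes as a further term, chosen after the data were seen, 0 of the 9 members passed in limma, and the log2 differences were 0.044 for *Igha*, 0.47 for *Pigr* (95% interval -0.0064 to 0.95) and 0.35 for *Ighm*, whose interval of -0.025 to 0.72 then included 0 (unadjusted p = 0.0624). That of *Iglc1* was -0.85 (95% interval -1.37 to -0.34, unadjusted p = 0.00703, adjusted p = 0.999). With 1 mouse high in Y-linked transcripts in each genotype, and QC6 apart in other genes too, the part of sex in these levels was not tested.

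Among the genes whose pattern over the 6 libraries was most like that of *Igha*, out of 9654 genes outside the immunoglobulin loci whose FPKM averaged 5 or more, were *Gm9992* (r = 0.988), *Flywch1* (0.988) and *Dynlt1c* (0.977). *Jchain* was number 32 in this order and *Mzb1* number 237. Those most like *Pigr* were *Aen* (r = 0.984), *Klf9* (0.979), *Vps26a* (0.975), *Plpp3* (0.969) and *Tmem29* (0.963). *Vps26a*, a retromer subunit, was at 8.89, 9.08 and 24.8 FPKM in QC4, QC5 and QC6 and at 25.7, 24.8 and 9.89 FPKM in QC3, QC8 and QC10. Like *Pigr*, it was high in QC6, QC3 and QC8. These are descriptions over 6 points, with no p.

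The cells that make the immunoglobulins were read from lists of marker genes. Counts over these lists stand beside 6.00% of all genes tested without overlap and with ApcMin.PCdel higher, 1.54% with it lower and 3.38% with an unadjusted p under 0.05. Of 12 plasma cell genes 11 were tested, and 0 passed after adjustment in limma and 0 had an unadjusted p under 0.05, with a median log2 difference of 0.092. *Mzb1* was at 31.5, 32.2 and 46.9 FPKM in QC4, QC5 and QC6 and at 42.4, 32.4 and 40.3 FPKM in QC3, QC8 and QC10. *Tnfrsf17*, the plasma cell receptor BCMA, was at 2.70 to 4.15 FPKM in ApcMin and 2.70 to 4.20 FPKM in ApcMin.PCdel. *Prdm1*, the factor Blimp-1 that sets the plasma cell program, was at 3.46 to 4.14 FPKM and 4.18 to 5.04 FPKM (log2 difference 0.21, adjusted p = 1.0, limma), and it and *Xbp1* were the list's only genes without overlap, both with ApcMin.PCdel higher (6.00% of all genes). *Sdc1* (82.6 to 135.5 FPKM) and *Xbp1* are also made by epithelium.

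The genes listed for B cells differed in level. *Ms4a1* (CD20) was at 0.0484 to 0.141 FPKM and *Pax5* at 0 to 0.0202 FPKM in the 6 libraries, near 0. *Cd79a* and *Cd79b*, which carry the signal of the B cell receptor, were at 10.2 to 16.6 and 4.25 to 6.22 FPKM, *Fcrla* at 1.88 to 3.59 FPKM and *Spib*, also made by epithelium, at 1.08 to 6.68 FPKM. Of 13 B cell genes 6 were tested and 0 passed in limma, 1 having an unadjusted p under 0.05 (median log2 difference 0.13). *Ciita*, the activator of MHC class II, was the only one without overlap, at 2.27 to 3.71 and 3.73 to 5.64 FPKM (log2 difference 0.49, adjusted p = 1.0). Of 11 measured genes of follicles and germinal centres, 4 were tested, 0 passed in limma, 0 had an unadjusted p under 0.05 and 0 were without overlap (median log2 difference 0.20).

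Genes that induce IgA or draw plasma cells to the gut showed no adjusted call either. Of 17 IgA induction genes 9 were tested and 0 passed in limma, 1 having an unadjusted p under 0.05 (median log2 difference 0.16). *Cd40* (log2 difference 0.39) and *Aldh1a2* (0.24), an enzyme of retinoic acid synthesis, did not overlap, with ApcMin.PCdel higher (6.00% of all genes), at adjusted p-values of 1.0 in limma. All 10 homing genes were tested and 0 passed in limma, 1 having an unadjusted p under 0.05 (median 0.11). *Ccl28*, the chemokine that attracts IgA plasma cells to mucosa, was at 3.07, 3.96 and 3.94 FPKM in QC4, QC5 and QC6 and at 6.36, 4.12 and 6.92 FPKM in QC3, QC8 and QC10. All 3 ApcMin.PCdel libraries were above all 3 ApcMin libraries, with a log2 difference of 0.53 (SE 0.19, unadjusted p = 0.0279, adjusted p = 1.0, limma). *Ccl25*, the chemokine of the small intestine for the same cells, was at 89.7 to 151.6 and 73.6 to 139.9 FPKM, with overlap.

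Among 18 regulators of *Pigr* 14 were tested and 0 passed in limma, 1 having an unadjusted p under 0.05 (median log2 difference 0.078). *Tnf*, a cytokine that induces *Pigr*, was at 1.07 to 1.17 FPKM in ApcMin and 1.38 to 2.74 FPKM in ApcMin.PCdel (log2 difference 0.46, unadjusted p = 0.0363, adjusted p = 1.0, limma). *Ifng*, at 0 to 0.130 FPKM, was too low to be tested. *Irf1*, a factor through which interferon and TNF act on *Pigr*, was at 35.1 to 69.7 and 47.6 to 84.1 FPKM, with overlap. Of 10 Fc and Ig receptors 8 were tested and 0 passed in limma, 2 having an unadjusted p under 0.05 (median 0.15). *Fcgr1* and *Fcgr4*, activating IgG receptors of macrophages, were without overlap at 1.13 to 1.26 and 1.90 to 2.41 FPKM and at 3.91 to 5.259 and 5.260 to 7.43 FPKM (log2 differences 0.48 and 0.42, adjusted p = 1.0 for both, limma). *Fcgrt*, the neonatal receptor that carries IgG, was at 49.2 to 52.0 and 32.5 to 61.9 FPKM.

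Other cell types were set beside these values. All 9 macrophage genes were tested and 0 passed in limma (median log2 difference 0.35). *Cd14*, *C1qc*, *Adgre1* and *C1qb* were without overlap with ApcMin.PCdel higher (6.00% of all genes), with log2 differences of 0.46, 0.41, 0.38 and 0.35. *Lyz2*, named after its values were seen, was without overlap in the other direction (-0.35, as 1.54% of all genes). *Lyz2* is close in sequence to the PC gene *Lyz1*, and whether reads were shared between them was not tested. An unadjusted p under 0.05 was found for 4 of the 9, *C1qc*, *Adgre1*, *C1qb* and *Lyz2* (3.38% of all genes). Over 9 tested T cell genes, 8 epithelial genes, 8 enterocyte genes and 6 smooth muscle genes 0 passed in limma, 0 had an unadjusted p under 0.05 and 0 were without overlap, with medians of 0.11, 0.043, -0.29 and 0.33. Of 6 PC genes 0 passed after adjustment and 4 had an unadjusted p under 0.05, and *Defa21*, *Defa22* and *Lyz1* were without overlap with ApcMin.PCdel lower (log2 differences -2.98, -2.77 and -0.95, adjusted p = 0.309, 0.309 and 0.979, limma). The 2 lambda genes tested of 5 other constant region rows both had log2 differences below 0 and 0 passed in limma, 1 having an unadjusted p under 0.05 (median -0.78). The part of these cell types in the levels of the immunoglobulin genes was not tested.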

How the data were processed

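The values are for 6 libraries of adenoma polyps, 3 per genotype, grouped by sample title. Per the study's methods, RNA was isolated on RNeasy columns, libraries were made with the TruSeq RNA kit and sequenced on a HiSeq2500, and CLC Genomics Workbench was used for alignment; a normalization in MatLab is named without settings. The authors deposited per gene a mean read coverage, an unscaled signal, together with FPKM and with TPM, which the authors scaled for length and depth. The program and annotation behind the deposited values are not given in the sources used here; positions match GRCm38.

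Separate entries of a gene were summed. limma 3.58.1 (R 4.3.3; trend) was fitted to log2(FPKM + 1) of the 14240 genes averaging 1 FPKM or more, with Benjamini-Hochberg adjustment; the pseudocount understates changes of low genes. Ratios and correlations used exact permutation tests (scipy 1.17.1). Scripts were tested on simulated data. Sequences, transcript lengths and 31-base words came from GENCODE M21. The share of membrane transcripts used genes whose identifier version equals that of GENCODE M21.

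The members and gene lists were chosen with earlier results of these data known. Named are all members, all other constant region genes, up to 4 genes without overlap per list, fixed markers, and the 5 genes most like *Igha* and *Pigr*; some genes this rule names are not reported here. The p-values take each mouse as the unit and so rest on differences between these mice. Those of limma also draw on the variance of all genes tested.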

Additional observations from a re-analysis of the deposited data

How the results depend on the processing

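Of 9 members tested, 0 passed the adjusted threshold in limma under any of 18 alternatives, 2 of which (coverage in place of FPKM, Y-linked score) were chosen after seeing the data. The count over all genes was 2. It was 3 when libraries were weighted by array quality and 1 under median centring or without the low-value filter; with 1 library left out it ran from 1 to 5. TPM and rescaling on genes other than immunoglobulin moved the median of all genes to 0.0997 and 0.0985.

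With a difference near 0, the sign turned for *Igha* under median centring (-0.019) and with 1 library left out (-0.088 to 0.20), for *Igkc* under median centring (-0.012) and with 1 library left out (-0.090 to 0.21), and for *Jchain* under TPM (0.036), quantile normalization (0.13), rescaling (0.041), array quality weights (0.23) and with 1 library left out (-0.17 to 0.24). With 1 library left out, *Ighg2c* ran from -0.018 to 0.61 and *Iglc2* from -0.089 to 0.57. Array quality weights, which gave QC6 little weight, moved *Iglc2* to 0.68, *Pigr* to 0.74, *Ighg2c* to 0.11 and *Iglc3* to -0.23.

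The lambda share turned from 0.058 to -2.12 percentage points once all lambda constant regions were counted, by the construction of that alternative, and light per heavy chain from 0.0025 to -0.030 (log2). With 1 library left out the latter ran from -0.035 to 0.030 and *Jchain* per *Igha* and *Ighm* from -0.12 to 0.040. The correlation of *Mzb1* with *Igha* was 0.827 in TPM (adjusted exact permutation p = 0.0833). As deviations from the genotype means, r with *Igha* was -0.022 for *Ighm*, -0.0026 for the summed gamma chains and 0.850 for *Pigr*, with no p given. The cause of these changes was not tested. No paired analysis was possible because the library numbers of the genotypes are not shared. With 3 mice a genotype and no read counts, the interval of *Ighg1* reaches from 0.615-fold to 5.23-fold.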
